A study of Danio rerio with 3 samples.

Results

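The oligos described here are 114 array probes whose deposited log2 ratios lay below -1 on all 3 arrays. Their titles contain the word "similar" and are called homolog titles here, though 36 of the 114 were left without a protein name. The ratio is FoxH1 morphant over control morphant, and each log2 unit is a factor of 2. They were chosen by those 3 values, by a quality score above 0 on every array, by a title containing the word "similar", and by the lack of a gene symbol; titles naming keratins, ribosomal proteins or claudins were left out. They are 114 of 15205 homolog-titled oligos that met every condition but the ratio (0.750%), on arrays with 35328 spots in the deposited matrix. The low ratios are therefore how the oligos were picked, and the values below describe them without a test.

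Each array set RNA of 50 pooled zebrafish embryos that had received a FoxH1 morpholino against RNA of 50 that had received a control morpholino, all taken at 40% epiboly. The design text speaks of 3 independent repeats with a dye swap. The morphant dye was Cy3 except on array 3, where it was Cy5, and control RNA had the other dye. No uninjected embryos were part of the comparison, so both pools had received a morpholino, and each pool mixes all the cells of whole embryos. Fewer cells of a type and less RNA per cell cannot be told apart in such pools.

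FoxH1 is a forkhead transcription factor that binds DNA together with activated Smad proteins and relays Nodal signals, which specify mesoderm and endoderm at the margin of the fish blastoderm. A morpholino is an antisense molecule that blocks translation or splicing of its target. At the stage sampled the blastoderm is spreading over the yolk: an outer epithelium, the enveloping layer, covers the deep cells, and a yolk syncytial layer lies beneath them. Cytoskeletal linkers are known for holding such epithelia together, and the yolk syncytial layer is known for passing yolk lipid to the embryo. Of 13 marker symbols for margin, enveloping layer, ectoderm, germ cells and later tissues, 6 had a usable oligo. The control signal of 5 of these was above 2 background SDs on all 3 arrays, including tbxta (listed as ntl), tbx16, gata5 and sox32 of the margin and the lens gene cryaa. Of 155 usable negative control spots of random sequence, 132 passed that limit in both colours on all 3 arrays. Passing it therefore does not show that a marker was expressed.

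The sign of array 3 was read by sample, with the morphant in the green column throughout, and rests partly on the data. Local background was higher in red than in green at 5.46% of the spots of array 1, 5.04% of those of array 2 and 94.2% of those of array 3. Over 132 random negative control spots the deposited values correlated at 0.93 between arrays 1 and 2, but at -0.69 and -0.75 between those arrays and array 3. Over 24229 oligos the same correlations were 0.88, -0.42 and -0.51. The spots share the slide and the dyes, and the coefficients are descriptions. With array 3 turned, none of the 114 oligos would meet the rule and 165 other homolog-titled oligos would. Of the homolog-titled oligos, 1024 were above 1 on arrays 1 and 2 and below -1 on array 3, 165 showed the opposite, 145 (0.954%) were above 1 throughout and 114 were below -1 throughout.

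The median deposited log2 ratio of the 114 oligos was -2.21, -2.15 and -1.57 on arrays 1, 2 and 3, against medians over all usable oligos of -0.02, -0.04 and 0.04. The lowest values were -7.65, -9.58 and -4.44 on the 3 arrays, so that array 3 had the narrowest range. The mean over arrays ran between -6.12 and -1.08 with a median of -1.98. For 78 oligos a protein could be named from the title or through an oligo of the same cDNA clone or UniGene cluster (transcripts grouped by sequence overlap), and these were read by hand into 9 groups after the members were known. The other 36 were left without a protein name. Some of their titles stop, at no more than 99 characters, before a name, and others name a repeat element or an uncharacterised protein. The naming was not exhaustive. Oprn6M06 shares a cDNA clone with an oligo whose cut title bears the code TENS_C, which was not used. MWG36N6 shares a UniGene cluster with an oligo whose cut title bears CHD4_HUM, also not used. The sizes of the hand-read groups depend on such choices.

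Cytoskeletal proteins and their linkers took 13 oligos in the reading by hand. The hand-read groups were not counted over all homolog-titled oligos, so their sizes have no background share and are not ranked. By title words, 7 of the 114 (6.14%) had cytoskeleton or motor words, against 2.30% of all homolog titles. Epiplakin, a plakin that binds keratin filaments in epithelia, had log2 ratios of -2.13, -2.27 and -2.37 on arrays 1, 2 and 3 (mean -2.26 ± 0.12, SD, n = 3), which is 4.78-fold lower in morphants. Its spot was bright, with intensities of 1577, 980 and 2857 in morphants against 19454, 12762 and 5879 in controls before the arrays' scaling constants. Another oligo from the same cDNA clone, outside the 114, gave -2.61, -2.87 and -2.86. The first oligo was chosen for its low values, and the other was also low on all 3 arrays, the dye swap included.

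Plectin, the plakin that ties intermediate filaments to other filaments and to junctions, was titled on an oligo with -2.72, -2.09 and -2.10. A further oligo, whose cut title keeps only the accession of human plectin, gave -4.35, -1.58 and -1.04, and its morphant signal on array 1 was only 11.3. Control intensities were 943, 504 and 199 for the first of these members and 650, 603 and 125 for the second. On every array they were below the median of the random negative control spots (1330, 626 and 265). The other usable oligo with the same rat plectin homolog gave -1.10, -0.39 and 0.74. The plectin oligos thus did not share one value, and on array 3 that other oligo had the opposite sign.

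Annexins bind membranes in the presence of calcium and link them to actin. Annexin max3, named after a fish annexin, had 3 oligos in the same UniGene cluster, 1 of them named through that cluster alone. They gave -1.97, -1.21 and -2.04, then -2.05, -1.60 and -2.43, and for the last of them -3.10, -2.46 and -1.95. A further oligo with this homolog in its title gave -0.20, 0.31 and -1.80, low on array 3 alone.

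Dynein light chain, a small subunit of the minus-end motor on microtubules, had 2 oligos, with -1.64, -1.81 and -1.51 for the first and -2.09, -1.79 and -1.48 for the second. A dynein light chain oligo titled for a Chlamydomonas protein missed the rule narrowly, with -2.31, -2.28 and -0.99. Alpha-tubulin, the microtubule subunit, lay close to the threshold with -1.03, -1.19 and -1.01. Of 5 other usable oligos with the same tubulin homolog, 4 were below 0 on all 3 arrays, with means between -1.18 and -0.31, and 1 had mixed signs. Tubulin genes are near-identical in sequence, so such oligos may share target RNA.

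Alpha-actinin crosslinks actin filaments. An oligo titled for a protein that resembles alpha-actinin gave -2.97, -2.48 and -2.17. The other usable oligo with that homolog gave 1.43, 1.20 and 1.0, so that the pair had opposite signs on every array. The beta subunit of capping protein, which blocks the growing end of actin filaments, gave -2.41, -2.46 and -2.23. An oligo from the same cDNA clone gave 0.18, 0.20 and 0.05. For these proteins the title alone does not give a level of the gene. A member in the UniGene cluster of transgelin 2, an actin-binding protein, gave -1.77, -1.83 and -1.63, and 2 other oligos of that cluster had means of -0.79 and -0.45.

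Laminin b1, a chain of the basement membrane protein laminin, was the matrix protein named, on 3 oligos. One gave -2.03, -1.33 and -1.20, another -2.33, -1.16 and -1.29, and the last -1.14, -2.60 and -1.01. The value of -2.60 came from a morphant intensity of only 23.7 on array 2. A further oligo, in the UniGene cluster of the first, was outside the 114 for lack of a homolog title and gave -1.47, -2.19 and -2.55. One more with the human homolog gave -0.67, -0.66 and -0.25. The 3 members were below -1 throughout by the rule. Outside the members, the oligo of the cluster was also below -1 throughout, and the one with the human homolog was below 0 throughout.

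Carbohydrate metabolism held 8 oligos, 4 for aldolase b and 2 for fructose bisphosphatase. Aldolase b, which splits fructose bisphosphate into trioses, works in both directions and is known from liver, had 4 oligos, 3 titled for a sea bream protein and 1 for a salmon protein. The sea bream oligos gave -1.71, -1.87 and -1.49, then -1.77, -1.73 and -1.57, and -1.67, -2.27 and -1.64. The salmon oligo gave -1.91, -1.94 and -1.18. Their means lay between -1.86 and -1.68.

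Fructose bisphosphatase, which removes a phosphate from fructose bisphosphate in glucose synthesis and so opposes phosphofructokinase, had 2 oligos. The first gave -2.54, -2.29 and -2.05 and the second -1.60, -1.39 and -2.32. The other usable oligo with this homolog gave 1.97, 1.70 and -1.71, a sign that turned with the dye swap. Phosphoenolpyruvate carboxykinase, the entry step of glucose synthesis, gave -1.10, -1.55 and -1.14, but 3 other oligos with its homolog had means of 0.08, 0.09 and 0.28. The mean of 0.28 came from 1.58, 1.63 and -2.38, a sign that also turned with the dye swap. The oligo from a cDNA clone titled for glycerol-3-phosphate dehydrogenase gave -2.54, -3.70 and -1.03, with a morphant intensity of 20.3 on array 2. Its UniGene cluster also holds rhodopsin, and 2 other usable oligos of that cluster had means of 0.21 and 1.35. Both were above 0 on arrays 1 and 2 and below 0 on array 3. The second, which is itself titled for rhodopsin, gave 3.89, 3.53 and -3.38.

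Mitochondrial proteins were titled on 8 oligos. The adenine nucleotide translocator ant2, which exchanges ATP for ADP across the inner membrane, gave -4.35, -3.82 and -3.26, which is 14.1-fold lower in morphants. The oligo titled ddp2, a homolog of a small chaperone of protein import, gave -2.40, -2.14 and -2.31, and a clone titled through its second oligo for an import translocase subunit gave -1.48, -1.90 and -1.37. Cytochrome c oxidase VIIc, a subunit of the last respiratory complex, gave -1.91, -2.15 and -1.31. No other usable oligo was linked to these 4 by clone, cluster or title homolog. The ddp2 title and the import translocase title can stand for the same protein, so these 4 oligos need not be of 4 proteins. Threonine dehydrogenase gave -1.86, -1.75 and -1.22, while another oligo of its homolog had a mean of -0.26. The Graves disease carrier oligo had a mean of -1.48, against -0.28 for another oligo of its cluster. The adenylate kinase 3-like oligo had a mean of -1.37, and the transhydrogenase oligo had a morphant intensity of 1 on arrays 1 and 2.

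Of 7 further oligos, 6 were titled for other enzymes, and 1, with a mean of -1.11, had a cut title with the code of a ribonuclease inhibitor. The oligo titled for the gamma subunit of cGMP phosphodiesterase, known from photoreceptors, had -5.11, -5.12 and -3.74. Its intensities were 128, 67.6 and 398 in morphants against 12466, 6359 and 2125 in controls. The 2 other usable oligos with that homolog had means of -0.41 and -0.08, so the low value belonged to 1 of 3 oligos. Alpha-aspartyl dipeptidase gave -3.29, -2.73 and -1.95. Beta3gnt5 and core1 galactosyltransferase, which build sugar chains of glycolipids and O-linked glycoproteins, had means of -1.42 and -1.22, and 2 other oligos of the core1 homolog had 0.72 and -0.17. The mean of 0.72 came from 1.63, 0.96 and -0.43, a sign that turned with the dye swap. PBEF, an enzyme of NAD synthesis, had a mean of -1.23. The lysyl-tRNA synthetase oligo gave -1.87, -8.56 and -1.02, with a morphant intensity of 0.2 on array 2, and 4 other oligos of its homolog had means of -0.10 or closer to 0.

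Signalling and protein turnover took 11 oligos and had a group median of -2.74, or -2.31 over the 7 whose morphant signal was above 2 background SDs on all 3 arrays. Lyn, a Src-family tyrosine kinase, gave -6.15, -7.68 and -3.86, and its morphant intensities were 34.1, 6.30 and 236 against 6821, 3487 and 1362 in controls. Fyn, another Src-family kinase, known in fish for a part in gastrulation movements, gave -2.67, -2.86 and -1.41. RYK, a Wnt receptor of the atypical kinase class, gave -3.28, -2.69 and -1.45. All 3 kinases had their smallest difference on array 3. RING finger protein 19, a ubiquitin ligase, gave -4.62, -3.80 and -3.70 from a bright control spot, and set binding factor 1, a phosphatase-like protein, gave -2.78, -2.34 and -3.09.

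Small G proteins and their regulators were also titled. The ral a oligo had a morphant intensity of 1 on arrays 1 and 2 and a log2 ratio of -3.01 on array 3. A rho/rac exchange factor, which activates G proteins that organise actin, gave -5.83, -4.00 and -1.63, with morphant intensities of 3, 11.2 and 147. ARL7 gave -1.82, -2.29 and -1.32, and another oligo of its homolog had a mean of -0.11. That other oligo turned sign on array 3. The PP1 beta phosphatase oligo gave -7.08, -2.90 and -1.21, with a morphant intensity of 1 on array 1 and a signal above 2 background SDs on 1 of the 3 arrays, while an oligo of the same cDNA clone gave -0.91, -0.59 and 0.26. Sestrin 3 had a mean of -1.84, and retinal degeneration b beta had -1.97, against 0.09 for another oligo of its homolog.

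Transcription and chromatin proteins were titled on 11 oligos. The polycomb methyltransferase ezh2 gave -2.95, -2.84 and -2.45, and another oligo of its homolog gave -0.15, 0.10 and -0.73. NF-kappa-B p65, a factor of immune signalling, gave -2.97, -2.32 and -1.62 from one of the brighter spots. HNF4A, a nuclear receptor known from liver, gut and yolk tissue, gave -2.46, -2.16 and -1.30. The grainyhead homolog, from a factor known in Drosophila for epidermal differentiation, gave -1.68, -1.14 and -1.21. The ezh2 value was not shared by its second oligo, and the others had no linked usable oligo.

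BAF53a, an actin-related subunit of chromatin remodelling complexes, gave -1.30, -1.58 and -1.02, and an oligo of the same cDNA clone gave -1.37, -1.51 and -0.55. The member was chosen for its low values, and the other oligo of the clone was also below 0 on all 3 arrays. A TBP-associated factor, part of the basal transcription machinery, gave -3.42, -2.86 and -4.19. HMG-14a, a nucleosome-binding protein, had a mean of -1.95, against -0.41 for its other oligo. CBF-B, LMO6, ATF4 and zfp91 had means of -1.40, -1.56, -1.40 and -1.14.

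Proteins of RNA processing, translation and replication were titled on 8 oligos. Symplekin, a scaffold of the machinery that cleaves and polyadenylates RNA, gave -4.40, -4.28 and -3.11, which is 15.3-fold lower in morphants, while 2 other oligos of its homolog had means of 0.24 and -0.36. Both of those other oligos turned sign on array 3. Replication factor C gave -3.17, -2.45 and -1.53 and the poly(A)-binding protein gave -2.21, -1.95 and -1.30, both from bright control spots. The splicing factor SRp55 gave -1.28, -1.29 and -1.82, and 2 other oligos of its homolog had means of -0.24 and -0.44. These 2 also turned sign on array 3. RPA40, a subunit of RNA polymerases, and rck, a helicase of mRNA decay, had means of -1.97 and -1.26. E1B-AP5, an RNA-binding protein, had a morphant intensity of 1.90 on array 2, and another oligo of its homolog had a mean of -0.30. The oligo for eIF3 p66, a translation initiation factor subunit, gave -3.32, -1.41 and -1.08, with a morphant intensity of 17.7 on array 1. The 3 other usable oligos of that homolog had means of -0.35, 0.69 and 0.05. The mean of 0.69 came from 1.70, 1.74 and -1.37, a sign that turned with the dye swap.

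Transport proteins and lipid carriers took 9 oligos. Apolipoprotein C-II, the activator of lipoprotein lipase, gave -3.43, -2.68 and -2.60, with intensities of 68.9, 51.6 and 126 in morphants against 2099, 892 and 306 in controls. Apolipoprotein C-I, another small lipoprotein component, gave -3.69, -9.0 and -3.0, and its morphant intensity was 1 on array 2. No other usable oligo was linked to either apolipoprotein. The A subunit of the vacuolar proton ATPase, which acidifies organelles, gave -2.20, -2.06 and -1.56, and MAL, a protein of apical membrane traffic, gave -1.94, -1.38 and -2.22. Sorting nexin 12 gave -2.98, -4.43 and -2.04, with a morphant intensity of 12.5 on array 2, but the oligo of its cDNA clone gave -0.16, 0.01 and -0.30. The exchanger NHE7 had a mean of -1.18, against -0.20 for another oligo of its homolog, and VAP1 had -1.25, against 0.01. The K-Cl cotransporter oligo had a mean of -1.46, while an oligo of its cDNA clone had 0.23 and 2 of its cluster had 0.08 and 0.18. The mean of 0.23 came from 1.26, 0.64 and -1.21, a sign that turned with the dye swap. None of these linked oligos was below 0 on all 3 arrays. The amino acid transporter A3 had a mean of -1.43.

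Of the 36 oligos left without a protein name, 5 had titles that name a repeat element. Oprn5A16 gave -4.35, -9.58 and -4.44, with a morphant intensity of 1 on array 2, whereas an oligo of the same cDNA clone gave -0.08, -0.59 and 0.36. Oligos Oprn6M18 and Oprn5B15 had means of -3.81 and -4.13, with control intensities of 6834 and 5638 on array 1. Their titles do not say which proteins they measure.

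Agreement between oligos was measured over all members. Of the 114, 47 shared a cDNA clone, UniGene cluster or title homolog with at least 1 other usable oligo, and 10 of them were linked to another member. Outside the members there were 60 linked usable oligos, of which 2 were below -1 on all 3 arrays (one of epiplakin and one of laminin b1), where 1.06% of all usable oligos were. Of the 60, 14 were below 0 on all 3 arrays (23.3%), against 16.3% of all usable oligos. The median of their means was -0.11. By kind of link, 2 of 8 same-clone oligos, 2 of 12 same-cluster oligos and 10 of 40 same-homolog oligos were below 0 throughout. Oligos that did meet the rule are not among these 60, which lowers the counts, and oligos that share a homolog in the title can belong to different genes.

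Signal strength differed among the members. The control signal was above 2 background SDs for all 114 on each array, whereas the morphant signal was above it for 96, 93 and 114 on arrays 1, 2 and 3, and on all 3 arrays for 87. Of 155 usable random negative control spots, 132 were above this limit in both columns on all 3 arrays. Passing the limit therefore does not show that a gene was detected. The median morphant intensity was 139, 92.3 and 302, against 2116, 1238 and 373 in controls. Over all usable oligos these medians were 291, 212 and 575 in morphants and 726, 506 and 236 in controls. A morphant intensity of 1 or less stood at 7 members on array 1 and 8 on array 2, so the lowest ratios there have no order among themselves. The control signal exceeded the median of 155 random negative control spots in 69, 79 and 78 members. Members below that median on all 3 arrays included both plectin oligos and those for grainyhead, transgelin 2, phosphoenolpyruvate carboxykinase and threonine dehydrogenase. None of those 155 spots was below -1 on all 3 arrays, where 1.06% of all usable oligos were. At that share few of 155 spots would be, so this count does not separate the members from random spots. The median morphant intensity of these random spots was 382, 224 and 600 on arrays 1, 2 and 3, above that of the members. The part of signal strength in the ratios was not tested.

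Loess normalization, which removes the trend of the ratio with brightness, left 112 of the 114 below 0 on all 3 arrays and 102 below -1, where 18.0% and 1.10% of all usable oligos were. The exceptions were the lysyl-tRNA synthetase oligo and the repeat-titled CP41O17, both dim. The median of the members' loess means was -1.93. Loess values come from the same spots and the same contrast by which the members were chosen. The members' low loess values thus follow largely from the rule and are no separate support. In limma with Benjamini-Hochberg adjustment over 26222 oligos, 0 were lower (0%) and 0 were higher (0%) at an adjusted p of 0.05, the smallest adjusted p being 0.282. At an unadjusted p of 0.05, 1387 were lower and 1588 higher, and an unmoderated one-sample test gave 1485 and 1655, with 0 after adjustment. No member therefore passed the test across all oligos. The fit had no dye term, so a difference between dyes counts as spread among the arrays. A fit with a dye term was run as an alternative, in which array 3 alone holds its dye order.

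The titles' own words gave a second description, by a keyword rule applied to all homolog-titled oligos. Cytoskeleton or motor words stood in 7 of 114 member titles (6.14%) and in 2.30% of all 15205 homolog titles. The 7 included BAF53a, which was grouped by hand with chromatin. The rest were oligos for annexin max3, dynein light chain, an alpha-actinin-like protein and alpha-tubulin. Words for metabolic enzymes stood in 13.2% of members and 9.36% of all, and words for adhesion or matrix in 1.75% and 0.39%. The member titles with adhesion or matrix words were 2, both of laminin b1. Signalling words stood in 4.39% and 5.72%, and RNA or translation words in 1.75% and 2.89%. Words for uncharacterised proteins stood in 7.89% of members and 16.0% of all. Transcription or chromatin words stood in 2.63% and 2.03%, transporter words in 2.63% and 1.42%, and trafficking words in 1.75% and 0.99%. The members with transcription or chromatin words included ddp2, and those with signalling words the adenylate kinase 3-like oligo. Both were grouped by hand with mitochondrial proteins. The keyword rule found protease, inhibitor or ubiquitin words in 0 member titles and in 1.64% of all. It misses cut titles and other wording: the members include a ribonuclease inhibitor code, alpha-aspartyl dipeptidase and RING finger protein 19. Of the titles, 57.9% of members and 57.2% of all had none of the words. Several of these members are oligos for the same protein, so the shares count oligos and not genes.

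By oligo set, 21 members came from 1774 Operon oligos (1.18%), 37 from 4151 Compugen oligos (0.89%) and 56 from 9280 MWG oligos (0.60%). The members lay in 44 of the 48 print blocks, with at most 5 in a block. Just inside the threshold were the ribonuclease inhibitor oligo, laminin b1 and alpha-tubulin, whose highest values were -1.001, -1.012 and -1.012. Just outside were oligos titled for the transcription factor E2F-4, an alcohol dehydrogenase and the Chlamydomonas dynein light chain, whose highest values were -0.998, -0.997 and -0.995. The values on either side of the threshold were thus nearly equal, and in all 6 the highest value was that of array 3.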

How the data were processed

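The files were 3 two-colour array tables and the deposited matrix. Per the file headers, each table gives the mean intensity of a spot in red and green, its local background, a ratio, a constant and a quality score. The authors' ratio equals red over green intensity divided by 1 constant per array, within 1% for at least 99.4% of spots. The deposited log2 values equal minus log2 of that ratio within 0.01 and have no correction for brightness. The deposited quality score was 0 at 13.1% to 15.4% of an array's oligo spots, and these were left out. The scanner software is not given in the sources used here. The matrix held 0 columns that could not be mapped.

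Loess (span 0.3), lmFit and eBayes came from limma 3.58.1 in R 4.3.3. The lmFit and eBayes steps were tested on simulated ratios. These were independent between arrays, with a common spread and no dye effect. That test therefore does not show how the fit behaves on arrays that differ by dye. Tables were made with pandas 2.3.3 in Python 3.11.15. The fold is 2 to the power of the mean deposited log2 ratio, turned to control over morphant. The number of arrays limits the precision. Protein names were taken from titles, or from an oligo of the same cDNA clone or UniGene cluster. The naming rule took the lowest means per class, members with linked oligos and those next to the threshold, and the hand-read groups added further names. The members, the lists and the reading of array 3 were chosen with earlier results of these data known. No probe sequences were used here.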

Additional observations from a re-analysis of the deposited data

How the results depend on the processing

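The number of oligos meeting the rule was 114. It was 204 with quality-0 spots kept, 174 at a threshold of 0.8, 53 at 1.5 and 56 with titles that begin with the word "similar". With array 3 turned it was 165, of which 0 were among the 114. Leaving out 1 array at a time gave 127 to 703 oligos, 189 without array 2 and 703 without array 3, so array 3 sets most of the selection. Loess, median centring, print-block loess and the background limit gave 125, 121, 127 and 87, of which 102, 113, 89 and 87 were among the 114. The median loess log2 ratio of the 114 was -1.93. It was -1.63 after normexp with an offset of 50 and -0.77 with array 3 turned. Leaving out 1 array gave -2.08 to -1.86, and the other alternatives also moved it by less than the spread of the arrays. The limma counts of 0 lower and 0 higher oligos became 7701 and 8440 with array weights and 345 and 2154 with array 3 turned. Leaving out 1 array gave 0 to 2145 lower and 0 to 3817 higher, the upper counts being those without array 3. The remaining alternatives gave 0 in each direction. The cause of these changes was not tested. The pairing of the pools is already held in the ratios, as each array sets a morphant pool against a control pool. No further pairing was made because there is 1 group of ratios. Dim morphant spots on arrays 1 and 2 limit the lowest ratios.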
